A study of Mus musculus with 18 samples.

Results

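Calcium leaves the neuronal cytosol through exchangers and pumps, and 10 genes of these were followed here in cultures that overexpressed a proteasome subunit. They are the sodium-calcium exchangers Slc8a1, Slc8a2 and Slc8a3, the potassium-dependent sodium-calcium exchangers Slc24a2 and Slc24a3, the plasma membrane calcium pumps Atp2b1, Atp2b2, Atp2b3 and Atp2b4, and Atp2a2, the SERCA pump that returns calcium to the endoplasmic reticulum. The genes were taken as a named list from 43629 gene IDs in the count table, and the list was drawn up with a lower level of Slc8a2 in Psmb8 than in mSc cultures, in these same libraries, in view. The values of Psmb8 against mSc libraries thus entered the choice, so for these genes that contrast is a description below: its counts of calls stand beside the share of all genes called, and no p is given for them. All 10 genes were among the 15671 that passed the filter on low counts, and the smallest count of any of them in a library was 461.

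The 18 libraries were bulk RNA-seq of poly(A)-enriched RNA, from neuronal cultures of mouse cortex. The Psmb8 group (6 libraries) overexpressed Psmb8, the catalytic β5i subunit that immunoproteasomes carry, and the Psmb5 group (6 libraries) overexpressed Psmb5, its counterpart in the constitutive proteasome. The mSc group (6 libraries) overexpressed mScarlet, a red fluorescent protein that served as the control. Lentivirus was added at 7 days in vitro and RNA was harvested 10 days later in all 3 groups, so every group carries a virus and a transgene, and no untransduced culture was used here. The sources used here do not give the strain, the age, the promoter or the dose of virus, nor what a replicate number stands for. An Ifng construct is named in the treatment protocol of every library, in conflict with the treatment tags and the design text, and the tags were followed.

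Psmb8 averaged 887 ± 198 CPM (read counts scaled by library size) in Psmb8 libraries and 6.28 ± 7.76 CPM in mSc libraries (SD, n = 6 each). Psmb5 averaged 451 ± 113 CPM in Psmb5 libraries and 42.9 ± 1.49 CPM in mSc libraries, and the groups did not overlap for either gene. Library totals ran from 15337511 to 21074229 counts. All 10 neuron markers were expressed, with sums of 4446 to 5589 CPM in Psmb8, 4331 to 5377 CPM in Psmb5 and 4370 to 5570 CPM in mSc libraries. Astrocyte markers (12 genes) summed to 1517 to 5457 CPM over the 18 libraries, so the cultures also held glial transcripts. Vascular and fibroblast markers (12 genes) summed to 14.4 to 54.9 CPM, with Dcn and Pdgfrb the highest, at up to 20.7 and 19.5 CPM. The microglial genes Tmem119, Cx3cr1 and P2ry12 stayed at or below 0.0588, 0.217 and 0.546 CPM in every library, and of the endothelial genes Cldn5 was at 0 counts in all 18 while Pecam1 lay at 0.5 to 1.14 CPM.

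Neurons admit calcium during each action potential and must clear it again to keep the cytosolic level low. Exchangers of the Slc8 and Slc24 families use the inward sodium gradient, and those of the Slc24 family also carry potassium outward with the calcium. The Atp2b pumps spend ATP to move calcium across the plasma membrane and are switched on by calmodulin, while Atp2a2 fills the endoplasmic reticulum, from which calcium can be released again.

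The 3 Slc8 genes lie far apart in the genome and differ in the sequence ahead of their starts. By GENCODE's annotation of GRCm38, Slc8a2 (ENSMUSG00000030376) spans chr7:16129826-16161063 on the plus strand, its longest principal transcript has 10 exons, and no other annotated gene overlaps it. Slc8a3 lies at chr12:81197915-81333180 and Slc8a1 at chr17:81373105-81738377, both on the minus strand. The others lie at chr4:86983124-87230477 (Slc24a2), chr2:145167754-145642166 (Slc24a3), chr10:98914406-99026143 (Atp2b1), chr6:113743831-114042613 (Atp2b2), chrX:73503086-73571005 (Atp2b3), chr1:133699457-133801041 (Atp2b4) and chr5:122453513-122502225 (Atp2a2). Annotated genes overlap Slc8a1, Slc8a3, Slc24a3, Atp2b2 and Atp2a2 on the opposite strand, and since it is not known whether the counting used strand, reads of such partners cannot be told apart from theirs. The 3 RefSeq promoter windows of the Slc8 genes, the 250 bases before each transcription start (GRCm38.p6), are printed because Slc8a2, which stood lower in Psmb8 cultures, belongs to this family. Each runs 5′ to 3′ on the strand of its gene, and capitals mark a match to a searched motif:
Slc8a2 (chr7:16129576-16129825): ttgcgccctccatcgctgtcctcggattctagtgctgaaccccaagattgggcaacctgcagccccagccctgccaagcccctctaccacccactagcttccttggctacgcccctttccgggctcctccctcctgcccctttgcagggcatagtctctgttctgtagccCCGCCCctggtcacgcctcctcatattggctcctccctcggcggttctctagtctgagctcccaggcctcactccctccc
Slc8a3 (chr12:81333181-81333430): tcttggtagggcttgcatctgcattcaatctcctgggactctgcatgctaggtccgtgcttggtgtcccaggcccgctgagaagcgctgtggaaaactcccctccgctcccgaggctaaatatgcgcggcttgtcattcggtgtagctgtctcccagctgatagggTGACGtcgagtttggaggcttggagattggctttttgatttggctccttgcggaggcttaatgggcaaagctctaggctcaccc
Slc8a1 (chr17:81738388-81738637): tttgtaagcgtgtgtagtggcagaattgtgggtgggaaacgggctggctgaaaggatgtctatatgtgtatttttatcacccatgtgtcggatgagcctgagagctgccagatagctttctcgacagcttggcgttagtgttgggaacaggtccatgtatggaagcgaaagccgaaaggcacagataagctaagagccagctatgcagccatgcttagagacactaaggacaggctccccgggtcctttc

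Both strands were searched for a GC box (GGGCGG), the core of the cAMP response element (TGACG) and a TATA box (TATAAA), and no match printed above overlaps another. The Slc8a2 window, 63.2% GC, held 1 GC box, which reads as its reverse complement in the strand shown. The Slc8a3 window (56% GC) held 1 TGACG, and the Slc8a1 window (50.4% GC) held no match. Among 32851 mouse promoter windows of the same length, 32.7% held a GC box, 17.8% a TGACG and 12.4% a TATA box, so none of the matches is rare. RefSeq windows were at hand for 8 of the 10 genes, 13 windows in all. Atp2b1 carried 4 and 3 GC boxes in its windows, Slc24a3 carried 4 and 0, and Atp2b4 carried no match of any of the 3 motifs. Atp2b2 carried 1, 0 and 1 GC boxes, while a window of Slc24a2 held 1 TGACG and 1 TATA box and its other window held none.

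Atp2a2 was the most abundant transcript of the 10 genes per length, and the order of the others depended in part on the length used. On the scale of CPM per kilobase of all annotated exons, Atp2a2 reached 201 ± 26.6 in Psmb8, 202 ± 23.8 in Psmb5 and 209 ± 24.3 in mSc cultures (mean ± SD, n = 6 each). Slc8a2 came second at 73.3 ± 5.65 in Psmb8, 78.0 ± 7.95 in Psmb5 and 84.4 ± 7.79 in mSc cultures. In every group the ranges of both genes stood clear of each other and of the genes below them. Atp2b4, Slc24a3, Atp2b1 and Atp2b2 followed, at 37.5 ± 4.70, 32.4 ± 5.48, 28.4 ± 5.39 and 27.1 ± 4.49 CPM per kilobase in mSc cultures, and Atp2b3 reached 19.0 ± 2.53. Neighbours among these 5 overlapped in every group, and in Psmb8 cultures Slc24a3 averaged above Atp2b4, 34.3 and 34.1. The 3 lowest in mSc cultures were Slc24a2 at 7.72 ± 0.399, Slc8a3 at 6.07 ± 0.635 and Slc8a1 at 2.07 ± 0.374, with ranges that did not overlap in mSc cultures, while Slc24a2 and Slc8a3 overlapped in Psmb8 and Psmb5 cultures. Per kilobase of the longest principal transcript, Atp2a2 stayed first in every group, but Slc24a3 averaged above Slc8a2 in Psmb8 cultures (87.6 against 73.3, higher in 6 of 6 libraries) and in Psmb5 cultures (84.3 against 78.0, higher in 4 of 6). In mSc cultures Slc24a3 (82.6) averaged below Slc8a2 (84.4) on that scale, and the ranges of the 2 genes overlapped in every group. Atp2b1 (60.7) then stood above Atp2b4 (39.2) in mSc cultures, Slc24a2 was the lowest in every group (8.95 in mSc cultures), and Slc8a1 lay above both Slc8a3 and Slc24a2.

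**Figure D1:**
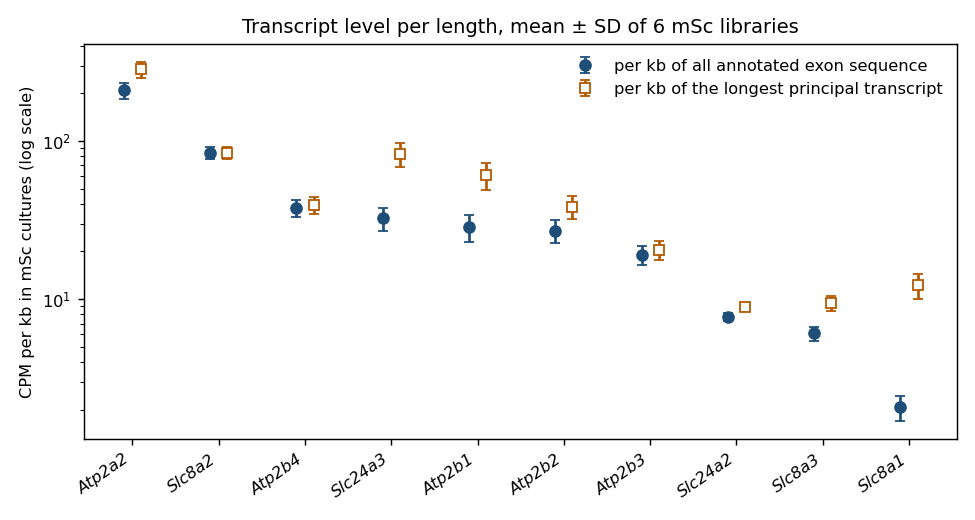
Level of each of the 10 genes in mSc cultures as CPM per kilobase (log axis), with points for the mean and bars for the SD of 6 libraries. Filled circles use all annotated exons and open squares the longest principal transcript. By all annotated exons Atp2a2 averages 209 and Slc8a2 84.4 in mSc cultures, and Slc8a1 lies lowest at 2.07.

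Within the Slc8 family nearly all of the length-scaled signal came from Slc8a2, the exchanger known as NCX2, whose expression is mainly neuronal. Its share of the family was 89.8 ± 1.03% in Psmb8, 90.8 ± 0.855% in Psmb5 and 91.2 ± 0.661% in mSc cultures. Slc8a3 (NCX3, found in brain and skeletal muscle) held 7.52 ± 0.734% in Psmb8, 6.72 ± 0.865% in Psmb5 and 6.57 ± 0.552% in mSc cultures. Slc8a1 (NCX1, the main exchanger of heart muscle) held 2.70 ± 0.407% in Psmb8, 2.46 ± 0.221% in Psmb5 and 2.24 ± 0.355% in mSc cultures. By the longest principal transcript the share of Slc8a2 was lower in all groups. It was 76.5 ± 2.28% in Psmb8, 78.4 ± 1.29% in Psmb5 and 79.6 ± 1.69% in mSc cultures. Both scales use the same counts, and the list was drawn up with the lower Slc8a2 level in Psmb8 cultures in view. Nothing is therefore read from the order of groups in its share. The plasma membrane pumps divided their signal more evenly: Atp2b4 held 31.5 ± 3.01% in Psmb8 and 33.7 ± 3.98% in mSc cultures, and Atp2b3 held 17.3 ± 0.475% in Psmb8 and 17.0 ± 0.401% in mSc cultures. On the principal-transcript scale Atp2b1 was instead the leading pump, with 39.5 ± 1.94% in Psmb8 and 38.0 ± 2.77% in mSc cultures.

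Slc8a2 was lower in Psmb8 than in mSc cultures in all 6 same-numbered pairs. By replicate number 1 to 6, its levels were 422, 336, 394, 369, 399 and 394 CPM in Psmb8 cultures. They were 473, 355, 376, 407, 416 and 436 CPM in Psmb5 cultures, and 479.6, 379.9, 479, 473, 414 and 439 CPM in mSc cultures. Of the Psmb8 libraries, 2 lay under the lowest mSc library, number 2 was the lowest in every group, and the groups overlapped. The means were 386 ± 29.7 CPM in Psmb8, 411 ± 41.8 CPM in Psmb5 and 444 ± 41.0 CPM in mSc cultures, and the Psmb8 mean was below the mSc mean by 13.2%. The pair differences of Psmb8 minus mSc were -0.19, -0.18, -0.28, -0.36, -0.052 and -0.16 on the log2 scale, all below 0, with pair 4 the widest and pair 5 the narrowest. With the replicate number in the model as a block the log2 difference was -0.20 (SE 0.043), and without it -0.20 (SE 0.076). In bulk RNA such as this, fewer cells that express a gene and less of its RNA per cell cannot be told apart.

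The other exchangers did not share a direction. Slc24a2 (NCKX2, found in neurons) was at 82.6, 82.2, 89.5, 89.4, 82.8 and 93.8 CPM in Psmb8 cultures. It was at 82.0, 93.2, 88.1, 91.8, 72.8 and 96.1 CPM in Psmb5 and at 93.0, 92.1, 95.5, 91.3, 90.4 and 104 CPM in mSc cultures. It was lower in Psmb8 cultures in 6 of 6 pairs, and 5 of the 6 Psmb8 libraries lay under the lowest mSc library. The log2 difference of Psmb8 from mSc, with the block here and below, was -0.12 (SE 0.042). Slc24a3, a potassium-dependent exchanger known as NCKX3, averaged 157 ± 22.2 CPM in Psmb8, 151 ± 16.4 CPM in Psmb5 and 148 ± 25.0 CPM in mSc cultures. It was higher in Psmb8 than in mSc cultures in 5 of 6 pairs, with a log2 difference of 0.090 (SE 0.048). Slc8a1 had its lowest, median and highest values at 29.5, 41.2 and 57.7 CPM in Psmb8, 30.0, 39.2 and 51.3 CPM in Psmb5 and 28.9, 38.4 and 47.4 CPM in mSc cultures. These ranges overlapped almost wholly, with 5 of 6 pairs higher in Psmb8 and a log2 difference of 0.092 (SE 0.059). Slc8a3 averaged 32.7 ± 4.19 CPM in Psmb8, 30.7 ± 4.03 CPM in Psmb5 and 32.3 ± 3.39 CPM in mSc cultures, was lower in 3 of 6 pairs and differed by 0.014 (SE 0.055) on the log2 scale.

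**Figure D2:**
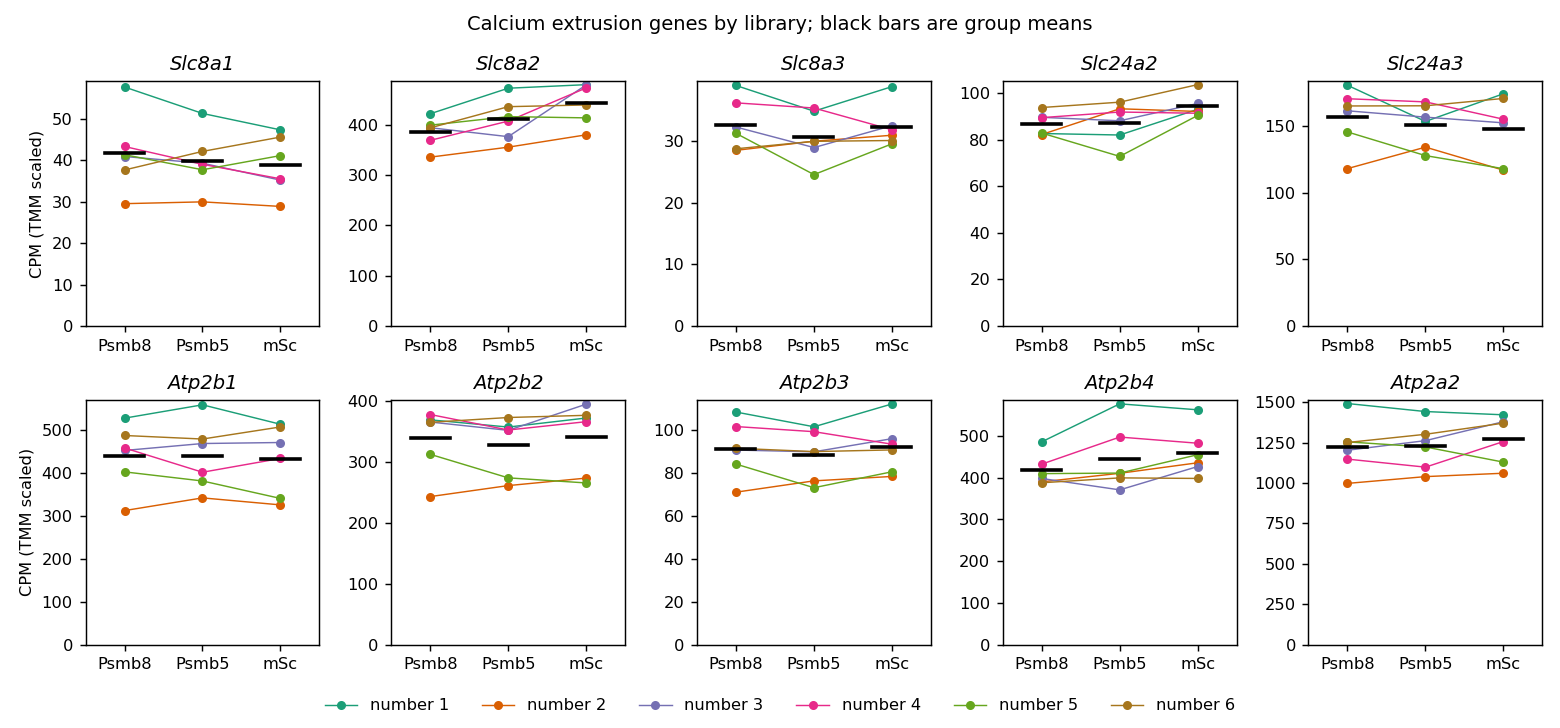
CPM of each of the 10 genes in every library (linear axes from 0), with Psmb8, Psmb5 and mSc cultures from left to right and lines joining libraries of the same replicate number. Slc8a2 averages 386 CPM in Psmb8, 411 in Psmb5 and 444 in mSc cultures, and replicate number 2 lies low in most panels.

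Of the plasma membrane pumps, Atp2b4 alone was lower in Psmb8 than in mSc cultures in every pair. Atp2b4 (PMCA4) was at 486, 389.8, 398, 432, 409 and 388 CPM in Psmb8 cultures. It stood at 577, 410.3, 371, 497, 411 and 399 CPM in Psmb5 and 562, 435, 426, 482, 455 and 398 CPM in mSc cultures. Replicate number 1 was the highest in each group, and 3 of the 6 Psmb8 libraries lay under the lowest mSc library. Its means were 417 ± 37.4 CPM in Psmb8, 444 ± 77.5 CPM in Psmb5 and 459.9 ± 57.6 CPM in mSc cultures, with a log2 difference of Psmb8 from mSc of -0.14 (SE 0.040). The broadly expressed Atp2b1 (PMCA1) averaged 441 ± 75.2 CPM in Psmb8, 439 ± 78.9 CPM in Psmb5 and 433 ± 82.0 CPM in mSc cultures, with 3 of 6 pairs lower and a log2 difference of 0.031 (SE 0.043). Atp2b2 (PMCA2), also known from the hair bundles of the inner ear, averaged 339 ± 52.4 CPM in Psmb8, 328 ± 47.9 CPM in Psmb5 and 342 ± 56.7 CPM in mSc cultures and differed by -0.0087 (SE 0.041). For Atp2b3 (PMCA3), a pump found mainly in brain, the means were 91.1 ± 13.1 CPM in Psmb8, 88.2 ± 11.6 CPM in Psmb5 and 91.8 ± 12.2 CPM in mSc cultures and the log2 difference was -0.012 (SE 0.040). These 3 genes differed between Psmb8 and mSc cultures by less than their SE. The SERCA pump Atp2a2 averaged 1225 ± 162 CPM in Psmb8, 1228 ± 145 CPM in Psmb5 and 1270.5 ± 148 CPM in mSc cultures, was lower in 4 of 6 pairs and differed by -0.055 (SE 0.042).

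Read over the 10 genes, 6 had a log2 difference of Psmb8 from mSc below 0, against 49.6% of all tested genes, and the median was -0.010 against 0.00081 over all genes. Slc8a2, Slc24a2 and Atp2b4 (3 of 10) were lower in all 6 pairs, as were 2.5% of all tested genes, and 0 of 10 were higher in all 6, against 3.18%. The Psmb8 and mSc groups overlapped for all 10 genes, and over all tested genes the groups did not overlap for 0.121%. By edgeR's quasi-likelihood test without the replicate number, 0 of the 10 were called at an adjusted p under 0.05, with 0.00638% of all genes called. With the number as a block, Slc8a2 was the 1 member called, as were 0.325% of all genes (0.211% lower and 0.115% higher). That call was lost when number 1, 2, 3, 4 or 6 was left out, when numbers 3 and 6 were left out together, when only the Psmb8 and mSc libraries were fitted, and when a trend with GC content was removed per library. Since this contrast chose the list, nothing is read from these counts.

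**Figure D3:**
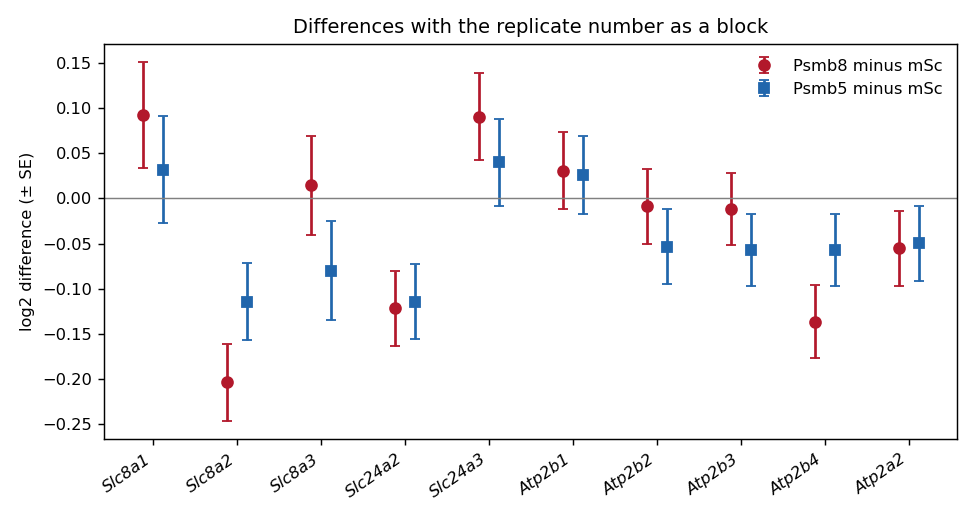
Log2 difference from mSc cultures of each of the 10 genes, with the replicate number as a block, for Psmb8 minus mSc and Psmb5 minus mSc; bars are ± 1 SE. Slc8a2 lies at -0.20 in Psmb8 and -0.11 in Psmb5 cultures, Slc24a2 at -0.12 in Psmb8 and -0.11 in Psmb5 cultures, and Slc8a1 and Slc24a3 lie above 0 in both.

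Slc8a2 is rich in GC, and the median difference from mSc cultures was slightly lower among GC-rich genes in Psmb8 and Psmb5 cultures alike. Its transcript has 58.5% GC, which places it in the highest of 10 bins of equal size. The median log2 difference of Psmb8 from mSc was -0.026 over the 1556 genes of that bin and 0.0080 over the 1556 genes of the lowest bin. In the same bins it was -0.032 and 0.023 for Psmb5 from mSc, and 0.0065 and -0.016 for Psmb8 from Psmb5. With a trend on GC content removed in each library, the log2 difference of Slc8a2 was -0.18 (SE 0.039). The other 9 genes ranged from 40.2% GC (Slc8a1) to 54.0% GC (Slc24a3). Interferon-stimulated genes (15) summed to 152 to 607 CPM in the libraries numbered 3 and 6 and to 29.2 to 58.0 CPM in the rest. Without numbers 3 and 6 the log2 difference of Slc8a2 was -0.20 (SE 0.049). Their sums by group were 29.2 to 384 CPM in Psmb8, 31.6 to 514 CPM in Psmb5 and 39.2 to 607 CPM in mSc libraries. Of the 13 tested, 12 had a log2 difference of Psmb8 from mSc below 0 (median -0.52), and 1, Gbp2, passed edgeR's test with the block. Of the 10 inhibitory neuron markers, 9 had a difference above 0 (median 0.26) and 0 passed. Inhibitory marker sums ran from 727 to 1274 CPM in Psmb8, 607 to 919 CPM in Psmb5 and 592 to 966 CPM in mSc libraries. Their medians were 772, 729 and 800 CPM in that order, so the Psmb8 median lay below the mSc median. Of the 9 tested oligodendrocyte lineage markers 0 lay above 0 (median -0.092). The sums of all 11 nonetheless had a median of 591 CPM in Psmb8 and 535 CPM in mSc libraries. Of the excitatory neuron markers 5 of 10 lay above 0 (median -0.013), and of the astrocyte markers 4 of 12 (median -0.056). The part of GC content and of these gene groups in the differences of the 10 genes was not tested.

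Psmb5 cultures were compared with the same mSc libraries, and no member passed the test. The Psmb5 values did not enter the choice of genes but the mSc values did, so this comparison is not independent of that choice, for Slc8a2 above all. Without the block, edgeR's quasi-likelihood test called 0 of 10 members and 0.00638% of all genes, and with the block it called 0 of 10 and again 0.00638%. DESeq2 and limma-voom also called 0 members, and their counts over all genes are not given here. At an unadjusted p under 0.05 there were 0 members among 148 genes without the block and 2 among 1077 genes with it. Those 2 were Slc8a2, with a log2 difference of Psmb5 from mSc of -0.11 (95% interval -0.20 to -0.031, adjusted p = 0.624 by edgeR), and Slc24a2, with -0.11 (-0.20 to -0.033, adjusted p = 0.624 by edgeR). Slc8a2 was lower in Psmb5 cultures in 5 of 6 pairs, with differences of -0.021, -0.096, -0.35, -0.22, 0.0087 and -0.011 for pairs 1 to 6. Pairs 3 and 4 were the widest. Slc24a2 was lower in 4 of 6 pairs. For the remaining 8 the log2 differences ran from -0.080 (Slc8a3, -0.19 to 0.028) to 0.040 (Slc24a3, -0.054 to 0.13), with adjusted p from 0.819 to 0.949 by edgeR. Atp2b4 was at -0.057 (-0.14 to 0.021), Atp2b1 at 0.026 (-0.059 to 0.11) and Atp2a2 at -0.050 (-0.13 to 0.032). The median of the 10 was -0.055, against 0.0018 over all genes, and 7 of the 10 lay below 0, against 49.0% of all genes. For 0 of the 10 were all 6 pairs lower (2.2% of all genes) or all 6 higher (2.04%), and the groups overlapped for all 10 (0.0319% of all genes did not overlap).

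The direct difference between the overexpressed subunits was small for every member. Slc8a2 stood lower in Psmb8 than in Psmb5 cultures in 5 of 6 pairs, with a log2 difference of -0.089 (SE 0.043). Atp2b4 was also lower in 5 of 6 pairs, at -0.079 (SE 0.040), while Slc24a2 differed by -0.0074 (SE 0.042). The highest values were 0.094 (SE 0.055) for Slc8a3 and 0.060 (SE 0.059) for Slc8a1. This contrast shares the Psmb8 libraries that chose the list, so it too is a description. In it 0 of 10 members were called without the block (0.0128% of all genes) and 0 of 10 with it (0.0383%). For 0 of 10 were all 6 pairs lower (2.23% of all genes) or all 6 higher (2.3%), and the groups overlapped for all 10 (0.0893% of all genes did not overlap).

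These genes also varied between replicate numbers, which the choice of genes did not use. All 10 differed between numbers by edgeR's quasi-likelihood test with group in the model, as did 64.3% of all genes. Among genes at a mean of 5 CPM or more the share was 73.6%. The range between the highest and the lowest number had a median of 0.48 on the log2 scale over the 10 members. It was 0.42 over all tested genes and 0.32 over the genes at a mean of 10 CPM or more. A range over 6 numbers tends to exceed a difference between 2 groups, so its size is not set against the group differences above. Slc8a1 spanned 0.82 (a fold of 1.76, adjusted p = 2.8e-06 by edgeR). In number 1 it lay at 57.7 CPM in Psmb8, 51.3 CPM in Psmb5 and 47.4 CPM in mSc cultures, and in number 2 at 29.5 CPM in Psmb8, 30.0 CPM in Psmb5 and 28.9 CPM in mSc cultures. Atp2b1 spanned 0.71 (1.63-fold, adjusted p = 4.3e-08 by edgeR). Its 6 libraries of numbers 2 and 5 lay at 313 to 403 CPM and the other 12 at 402 to 559.7 CPM. Atp2b2, Atp2b3 and Atp2a2 spanned 0.52, 0.51 and 0.49, and Slc24a3, Atp2b4 and Slc8a3 spanned 0.46, 0.45 and 0.40. The narrowest ranges were those of Slc8a2 (0.36, adjusted p = 0.0012 by edgeR) and Slc24a2 (0.26, adjusted p = 0.014 by edgeR). The calls of 3 genes rested on single numbers: that of Slc8a2 was lost without number 2, that of Slc8a3 without number 1, and that of Slc24a2 without number 5 or without number 6.

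The order of the numbers varied among the 10 genes. Number 1 held the highest library in 22 of the 30 sets of a gene in a group, and number 2 the lowest in 20 and number 5 in 7. For Atp2b1, Atp2b2, Atp2b3 and Slc24a3, numbers 2 and 5 were the lowest pair in all 3 groups. Averaged over the groups, Atp2b4 was instead lowest at number 6, and Slc24a2 was highest there. Neuron markers summed to 4331 to 4654 CPM in the 6 libraries of numbers 2 and 5 and to 5169 to 5589 CPM in the other 12, and these ranges did not overlap. Astrocyte markers summed to 4586 to 5457 CPM in the 3 libraries of number 1, against 1517 to 2138 CPM in the other 15. Oligodendrocyte lineage markers (11 genes) summed to 724 to 920.3 CPM in number 1 and 222 to 1064 CPM elsewhere. The part of these marker differences in the differences of the calcium genes was not tested.

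**Figure D4:**
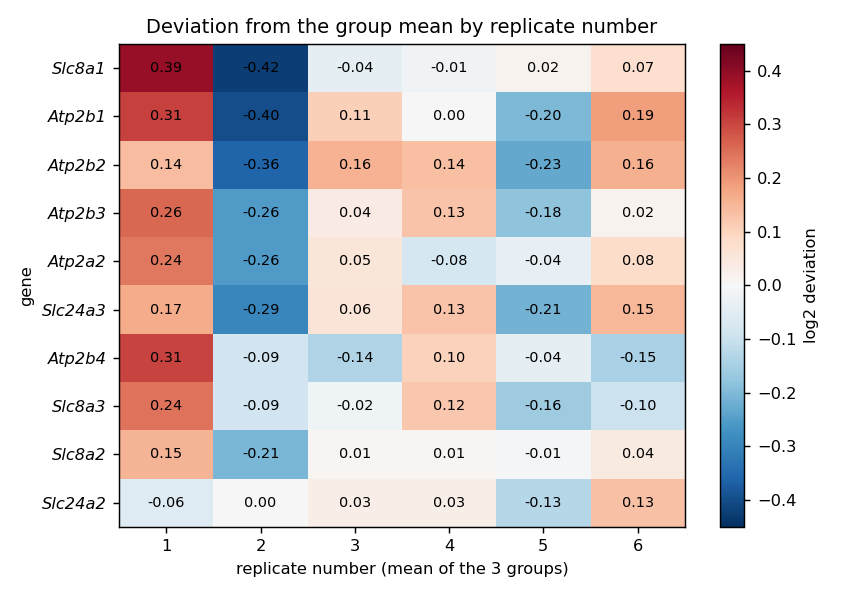
Log2 deviation of each of the 10 genes at replicate numbers 1 to 6 from its mean, averaged over the Psmb8, Psmb5 and mSc library of that number. Atp2b1 lies at 0.31 in number 1 and -0.40 in number 2, Slc8a1 at 0.39 in number 1 and -0.42 in number 2, and Slc24a2 varies least between numbers.

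Once the mean of each replicate number was taken out, the genes most like Slc8a2 over the 18 libraries were Gbp2, Camta2, Arhgap33, Wdr13 and Ap2a1. Their Pearson r with Slc8a2 ran from 0.89 to 0.91 and their Spearman correlation from 0.84 to 0.9, over 10056 genes compared. Only the means of the numbers were taken out, so the group differences of Slc8a2, on which the list was chosen, remain in the correlations. Genes picked by them tend to share its order of groups, so the correlations and group means are given as a description. Gbp2, an interferon-induced GTPase, averaged 21.5 CPM in Psmb8, 28.9 CPM in Psmb5 and 41.3 CPM in mSc cultures, and its reads may be shared with other Gbp genes. Arhgap33, a GTPase-activating protein, averaged 317 CPM in Psmb8, 365 CPM in Psmb5 and 394 CPM in mSc cultures. Camta2, a calmodulin-binding transcription activator, averaged 206 CPM in Psmb8, 219.7 CPM in Psmb5 and 228 CPM in mSc cultures. Ap2a1, a subunit of the clathrin adaptor AP-2, and Wdr13, a WD-repeat protein, also averaged lowest in Psmb8 and highest in mSc cultures, as such a choice favours. Of the 5 genes 4 exceed 50% GC, against a median of 49.7% over all tested genes with a GC value. Among the members, Atp2b4 was the most like Slc8a2 by this measure (r = 0.76) and then Atp2a2 (r = 0.59), while Slc8a1 ran the other way (r = -0.58).

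Around the 10 genes stand other calcium genes, taken as 6 lists of 79 genes, of which 71 were tested. In Psmb8 against mSc cultures with the block, edgeR called 1 of the 71, Ryr1, and 0 without the block, beside 0.325% and 0.00638% of all genes. Of the other exchangers and pumps 7 were tested, 0 passed, and the median log2 difference was 0.095. The smallest p in that list belonged to Tmem165, a Golgi transporter of calcium and manganese (0.12, SE 0.049, adjusted p = 0.374 by edgeR), and Atp2c1, the Golgi calcium pump (0.095, SE 0.040, adjusted p = 0.375). Of 9 tested partners of the pumps and exchangers 0 passed (median 0.039). Calm3, a gene for the calmodulin that activates the Atp2b pumps, was at 1162 ± 49.4 CPM in Psmb8 and 1288 ± 119.8 CPM in mSc cultures (-0.15, SE 0.036, adjusted p = 0.093 by edgeR, lower in 6 of 6 pairs). Bsg, basigin, which associates with the Atp2b pumps, differed by 0.075 (SE 0.039). Among 13 subunits and partners of the sodium-potassium pump, which sets the sodium gradient that the exchangers use, 0 passed (median -0.010), and Atp1b3 (0.10, SE 0.040, adjusted p = 0.351 by edgeR) and Nkain1 (0.097, SE 0.044, adjusted p = 0.441) had the smallest p.

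Among the 14 genes of endoplasmic reticulum release and store-operated entry, Ryr1, a ryanodine receptor that releases calcium from that store, fell and 13 did not pass. Ryr1 was at 18.5, 20.1, 11.6, 11.0, 19.7 and 11.3 CPM in Psmb8 cultures. It was at 23.5, 23.5, 12.9, 15.2, 22.3 and 14.3 CPM in Psmb5 and at 20.7, 22.3, 16.2, 15.6, 25.9 and 13.6 CPM in mSc cultures. The Psmb8 library was lower than the mSc library in 6 of 6 pairs, although numbers 3, 4 and 6 were low in every group and the groups overlapped. Its means were 15.4 ± 4.49 CPM in Psmb8, 18.6 ± 4.99 CPM in Psmb5 and 19.0 ± 4.69 CPM in mSc cultures. The log2 difference of Psmb8 from mSc with the block was -0.32, SE 0.067, adjusted p = 0.036 by edgeR. The call was lost without number 2, 3, 4, 5 or 6, where edgeR's adjusted p ran from 0.082 to 0.148, in the fit of the Psmb8 and mSc libraries alone (0.098), and without numbers 3 and 6 (0.24). It was kept with the GC trend removed (adjusted p = 0.039 by edgeR).

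Mitochondrial uptake and calcium binding did not pass either. Of 13 genes of mitochondrial uptake 0 passed in Psmb8 against mSc cultures (median 0.015). Vdac3, a channel of the outer mitochondrial membrane, had the smallest p (0.13, SE 0.040, adjusted p = 0.199 by edgeR, higher in 6 of 6 pairs), followed by Smdt1, a subunit of the uniporter complex (0.14, SE 0.048, adjusted p = 0.272). Of 15 tested buffers and sensors 0 passed (median 0.040). Necab1, a neuronal calcium-binding protein, was at 164 ± 13.5 CPM in Psmb8 and 143 ± 14.4 CPM in mSc cultures (0.20, SE 0.051, adjusted p = 0.093 by edgeR, higher in 6 of 6 pairs). Hpcal4, a neuronal calcium sensor, was lower in 6 of 6 pairs (-0.15, SE 0.041, adjusted p = 0.135 by edgeR). In Psmb5 against mSc cultures 0 of the 71 genes passed with or without the block, beside 0.00638% of all genes in both. The phospholamban gene Pln, whose product restrains Atp2a2 in heart, was not tested, with 21 counts over all 18 libraries.

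**Figure D5:**
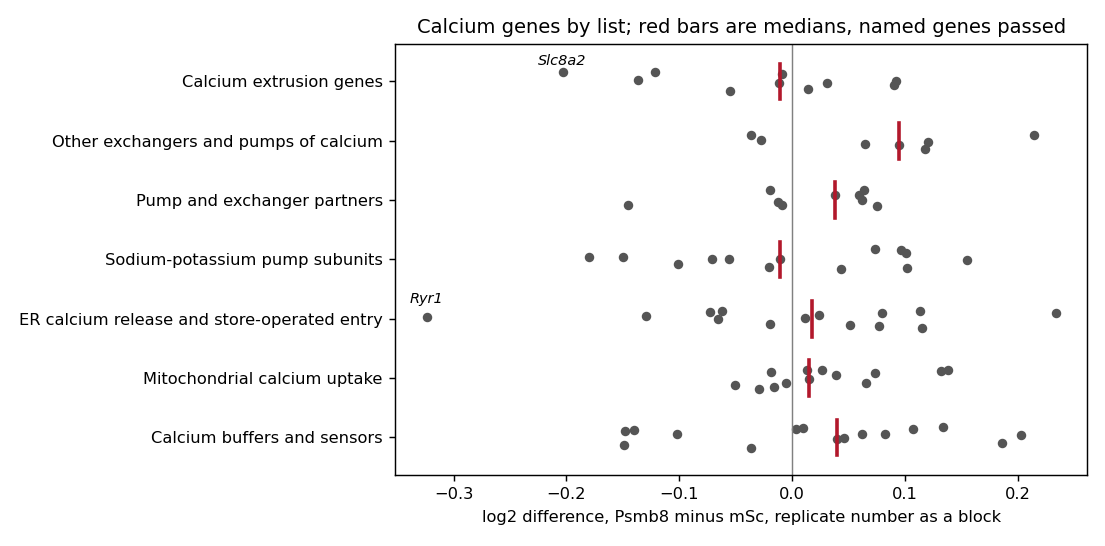
Log2 difference of Psmb8 from mSc cultures with the replicate number as a block, 1 point per tested gene, for the 10 calcium extrusion genes and 6 further calcium lists, with the median of each as a bar. Points lie around 0, and the genes marked as past an adjusted p of 0.05 are Slc8a2 (-0.20), a member chosen on this contrast, and Ryr1 (-0.32).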

How the data were processed

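A single table of unnormalized counts of reads, by Ensembl gene ID, was deposited by the authors, and its 18 columns were matched to samples by title. The submitters' processing notes list STAR 2.4 and DESeq2, and both GRCm39 and mm10 as builds, without saying what each was used for. Whether counting used strand, how it treated reads that map to several places, and which annotation it used are not known, so how reads of paralogs or overlapping genes were divided is open to doubt. Symbols were assigned to 42462 of 43629 gene IDs. Gene positions, lengths and GC content come from GENCODE's GRCm38 annotation, which may differ from the build behind the counts.

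Counts were filtered with filterByExpr of edgeR 4.0.16 (R 4.3.3), scaled by TMM and tested with the quasi-likelihood test in 1 fit of all 18 libraries by group. P-values were adjusted by Benjamini and Hochberg's method over all 15671 genes, with a threshold of 0.05. CPM values use the TMM-scaled library sizes of the tested genes. Intervals are the estimate ± a 95% normal margin. Differences between replicate numbers were tested with number and group in the model. The fits were also run on simulated counts with known differences. Recovery was required there only for log2 differences of 1, in the blocked fit of Psmb8 against mSc, far larger than those of the members.

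The labels do not say what the replicate numbers mean. The 18 same-numbered pairs of libraries between groups deviated together (r of 0.45 to 0.73, mean 0.60). The 90 pairs with unlike numbers had a mean r of -0.12 and ranged from -0.54 to 0.65, which overlaps the range of the same-numbered pairs. Deviations were taken from group means, so for each gene they sum to 0 within a group. This ties the mean r of unlike pairs to that of same-numbered pairs, and the -0.12 is no separate evidence of pairing. Since every same-numbered pair correlated positively, the numbers were taken to pair the samples. Nothing says that the libraries of a group came from separate cultures, so the p-values may measure no more than technical spread.

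The members and lists were chosen with earlier results of these data known. Named were all members, the overexpressed genes, the genes of each calcium list past the test or otherwise the 2 with the smallest p in the blocked fit of Psmb8 against mSc, and the 5 genes most like Slc8a2 (at 10 CPM or more). Marker genes named beside them only describe the cultures. Alternatives used DESeq2 1.42.0, limma-voom (limma 3.58.1), other scalings and filters, the replicate block and each library left out.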

Additional observations from a re-analysis of the deposited data

Results flagged for a closer look

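Over the 30 groups of 6 libraries (10 genes in 3 groups), 1 library stood apart from the rest of its group. Slc8a3 was at 38.9 CPM in mSc replicate 1, while the other mSc libraries lay at 29.6 to 32.6 CPM. Chance alone flags about 1 in 20 such groups.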

How the results depend on the processing

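Without the replicate block, 0 of the 10 members were called in Psmb8 against mSc under every alternative run, each library left out included. With the replicate block, which pairs libraries by number, 1 member (Slc8a2) was called. Within the blocked fit the alternatives other than leaving out numbers were chosen after seeing the data. There 1 member was called with limma-voom, with DESeq2's size factors, with library sizes without Psmb5 and Psmb8, and at a mean of 5 CPM or more. The counts over all genes in these settings are not given here, so nothing is read from that count. With DESeq2, and with no low-count filter, 2 were called (Slc8a2 and Atp2b4). Fitting the 2 groups alone, removing the GC trend or leaving out numbers 3 and 6 gave 0. Leaving out 1 number at a time gave 0 to 1, with 1 only without number 5. The count over all genes without number 5 is not given here, so nothing is read from that call either. Over all genes the blocked count was 51 of 15671. It was 138 with DESeq2, 321 with no low-count filter, where more genes were tested, and 24 in the fit of the 2 groups. It was 9 without number 3, 19 without number 2 or number 6, and 2 without numbers 3 and 6. The cause was not tested. The log2 difference of Slc8a2 kept its sign in all of them. The list was chosen with that sign in view and all 6 pairs lay below 0, so nothing is read from it.

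In Psmb5 against mSc and in Psmb8 against Psmb5, 0 members were called under every alternative, and the block changed no call there. The sign of 6 small, uncalled differences of Psmb5 from mSc turned when single libraries were left out. Over those fits Slc8a1 ran from -0.050 to 0.11 (0.032 in the blocked fit), Slc24a3 from -0.030 to 0.082, Atp2b1 from -0.059 to 0.084, Atp2b2 from -0.12 to 0.0011, Atp2b3 from -0.10 to 0.0063 and Atp2b4 from -0.14 to 0.013. Slc24a3 reached 0.079 without mSc replicate 1, and Atp2b1 lay at -0.00087 in the blocked fit without number 5. Signs of small differences turned in the other contrasts too. In Psmb8 against mSc, Slc8a1 ran from -0.014 to 0.18, Slc8a3 from -0.039 to 0.075, Atp2b1 from -0.042 to 0.11, Atp2b2 from -0.074 to 0.068 and Atp2b3 from -0.064 to 0.054, and in Psmb8 against Psmb5 the sign turned for Slc8a1, Slc24a2, Atp2b1, Atp2b2, Atp2b3 and Atp2a2. Between replicate numbers 10 members were called under all other alternatives, beside 35.3 to 73.6% of all genes. With a number left out 9 to 10 were called, beside 55.9 to 62.4% of all genes.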
